A study of Mus musculus with 15 samples.

Results

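Messenger RNA levels of 10 genes were compared by diet in 5 tissues: the glucose transporter gene Slc2a1, the glycolysis genes Hk1, Hk2, Pfkl, Aldoa, Pgk1, Eno1, Eno3 and Ldha, and P4ha1, which belongs to collagen synthesis and is linked to hypoxia. The genes were taken by symbol from a table of 33603 loci, 23589 of which carry a gene name, and each of the 10 symbols named 1 locus. Hk2, Eno3 and P4ha1 were picked because their counts were higher after restriction. Their values and any call of a change are therefore described here and carry no weight as a test. The other 7 genes were chosen as members of the same pathway. Male C57BL/6 mice were fed ad libitum (AL), or were placed at 4 months of age on a diet restricted by 40% (DR) for 1 month, or returned to AL feeding for 2 months after that same month of restriction (DR-AL). Tissues were taken at 5 months of age from the first pair of groups and at 7 months from DR-AL, where refeeding and age therefore cannot be told apart. Each pool held RNA from 5 mice. Liver, epididymal fat, colon mucosa, hypothalamus and hippocampus thus gave 15 libraries, 1 for each tissue and diet.

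Glycolysis splits glucose into pyruvate in the cytosol. Glucose enters the cell through transporters such as the one encoded by Slc2a1, hexokinases trap it as glucose 6-phosphate, and phosphofructokinase commits it to the pathway. Aldolase, phosphoglycerate kinase and enolase act further down, and lactate dehydrogenase reduces pyruvate to lactate. Most steps have isoenzymes that differ between tissues: Pklr is the pyruvate kinase gene of the liver, enolase 3 (Eno3) is the muscle form, and Pgk2 and Ldhc are the forms of male germ cells. When oxygen is scarce, hypoxia-inducible factors raise transcription of many glycolysis genes and of P4ha1, the catalytic alpha subunit of the enzyme that hydroxylates proline in collagen. Hypoxia-inducible factors bind DNA at a short core, ACGTG or GCGTG.

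The 250 bases upstream of the annotated start are shown for the 3 genes picked for higher counts, to show what the sequence upstream of these genes holds. Sequences are from RefSeq on GRCm38.p6, written 5′ to 3′ on the strand of the gene and ending at the base before the start. Capitals mark the core on either strand, so that CACGT and CACGC are the core read from the opposite strand. The window of P4ha1 is chr10:59323046-59323295 on the plus strand, that of Hk2 is chr6:82774455-82774704 on the minus strand, and that of Eno3 is chr11:70656926-70657175 on the plus strand.
P4ha1: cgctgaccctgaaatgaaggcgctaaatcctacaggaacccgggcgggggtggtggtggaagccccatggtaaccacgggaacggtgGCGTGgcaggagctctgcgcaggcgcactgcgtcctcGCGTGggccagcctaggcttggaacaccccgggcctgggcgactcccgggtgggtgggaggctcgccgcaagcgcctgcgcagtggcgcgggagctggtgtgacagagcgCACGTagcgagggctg
Hk2: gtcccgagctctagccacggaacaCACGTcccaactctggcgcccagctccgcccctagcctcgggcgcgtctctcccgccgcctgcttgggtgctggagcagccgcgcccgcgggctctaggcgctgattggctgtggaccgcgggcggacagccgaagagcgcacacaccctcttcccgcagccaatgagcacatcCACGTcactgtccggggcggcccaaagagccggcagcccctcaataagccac
Eno3: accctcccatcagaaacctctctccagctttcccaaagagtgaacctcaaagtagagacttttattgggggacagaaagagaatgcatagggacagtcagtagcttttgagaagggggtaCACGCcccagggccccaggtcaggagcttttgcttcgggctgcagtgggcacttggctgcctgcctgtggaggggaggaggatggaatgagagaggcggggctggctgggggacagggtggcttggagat
The P4ha1 window held 3 cores, which begin 163, 126 and 16 bases upstream of the start. Hk2 had 2 cores, at 226 and 52 bases, and Eno3 had 1 core at 130 bases. Of 32851 such windows in the genome, 38.6% held at least 1 core, 16.7% at least 2 and 6.58% at least 3. All 10 genes had a window with a core, in 14 of their 16 windows, as a gene can have several starts. Ldha held the most in a single window, 5 matches, of which those at 145 and 144 bases and those at 48 and 47 bases overlap as the 2 strands of the same palindrome. A match of letters is a description and not a bound site.

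Between 21767088 and 40500130 counts per library fell on named loci, with a median of 26554699. Levels are given as CPM, the counts of a library brought to a common total over its named loci, which compares a gene between libraries and not genes with each other. A gene was called changed between 2 libraries of a tissue when the Z test that the study used, which allows for counting error, gave a Benjamini-Hochberg adjusted p under 0.05 and the levels stood in a ratio of at least 5 to 4. Because each diet was a single pooled library in a tissue, differences have no replicate check and the test sets 1 library against another rather than diet against diet. The 95% intervals are exact intervals for counting error only. Fewer cells of a type and less RNA per cell cannot be told apart in such tissue samples. Markers of other tissues differed between the libraries of fat and liver. In the liver, colon enterocyte markers summed to 30.4, 121 and 21.5 CPM in AL, DR and DR-AL, with 4 of 6 higher and 0 lower in DR, and adipocyte markers to 20.7, 22.9 and 91.6 CPM. Their part in the liver values was not tested. Pgk1 and Eno1 share 67.5% and 65.4% of their 75-base transcript stretches with other annotated genes, chiefly the processed pseudogene Pgk1-rs7 and the copy Eno1b, so their counts are uncertain. Hk2, Pfkl, Eno3 and P4ha1 shared no such stretch, and the other 4 genes shared between 0.973% and 5.23%.

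Isoenzyme shares differed between tissues, and in fat, colon and liver the leading form of some families also differed between the libraries. Shares were taken from FPKM, which is scaled by transcript length, within 1 library. In the liver Slc2a2 took between 88.7% and 95.3% of the FPKM of 4 glucose transporters and Ldha at least 98.0% of that of lactate dehydrogenase. In the colon Slc2a1 took at least 99.6% of the transporter FPKM and Ldha at least 99.5% of the lactate dehydrogenase FPKM. The hexokinase share of Hk2 in the colon was 27.9%, 44.8% and 47.1% under AL, DR and DR-AL, while that of Hk1 was 51.6%, 47.9% and 44.7%, so that Hk2 led in DR-AL. That of Hkdc1, a further hexokinase gene, was 20.2%, 7.12% and 8.04%. Pfkl took 54.2%, 49.2% and 38.5% of the phosphofructokinase FPKM in the AL, DR and DR-AL liver, where Pfkm, the muscle form, led in DR-AL with 51.9%. In both brain regions Hk1 held at least 80.0% of the hexokinase FPKM. Eno3 stayed at or under 1.40% of the enolase FPKM in the brain, where Eno1 and the neuronal form Eno2 shared the step, and reached between 26.8% and 32.4% in the colon. P4ha1 took between 80.6% and 83.3% of the FPKM of the 3 alpha subunit genes in the colon, and 47.3%, 56.6% and 64.4% in the AL, DR and DR-AL livers, where P4ha2 made up nearly all of the rest.

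**Figure D1:**
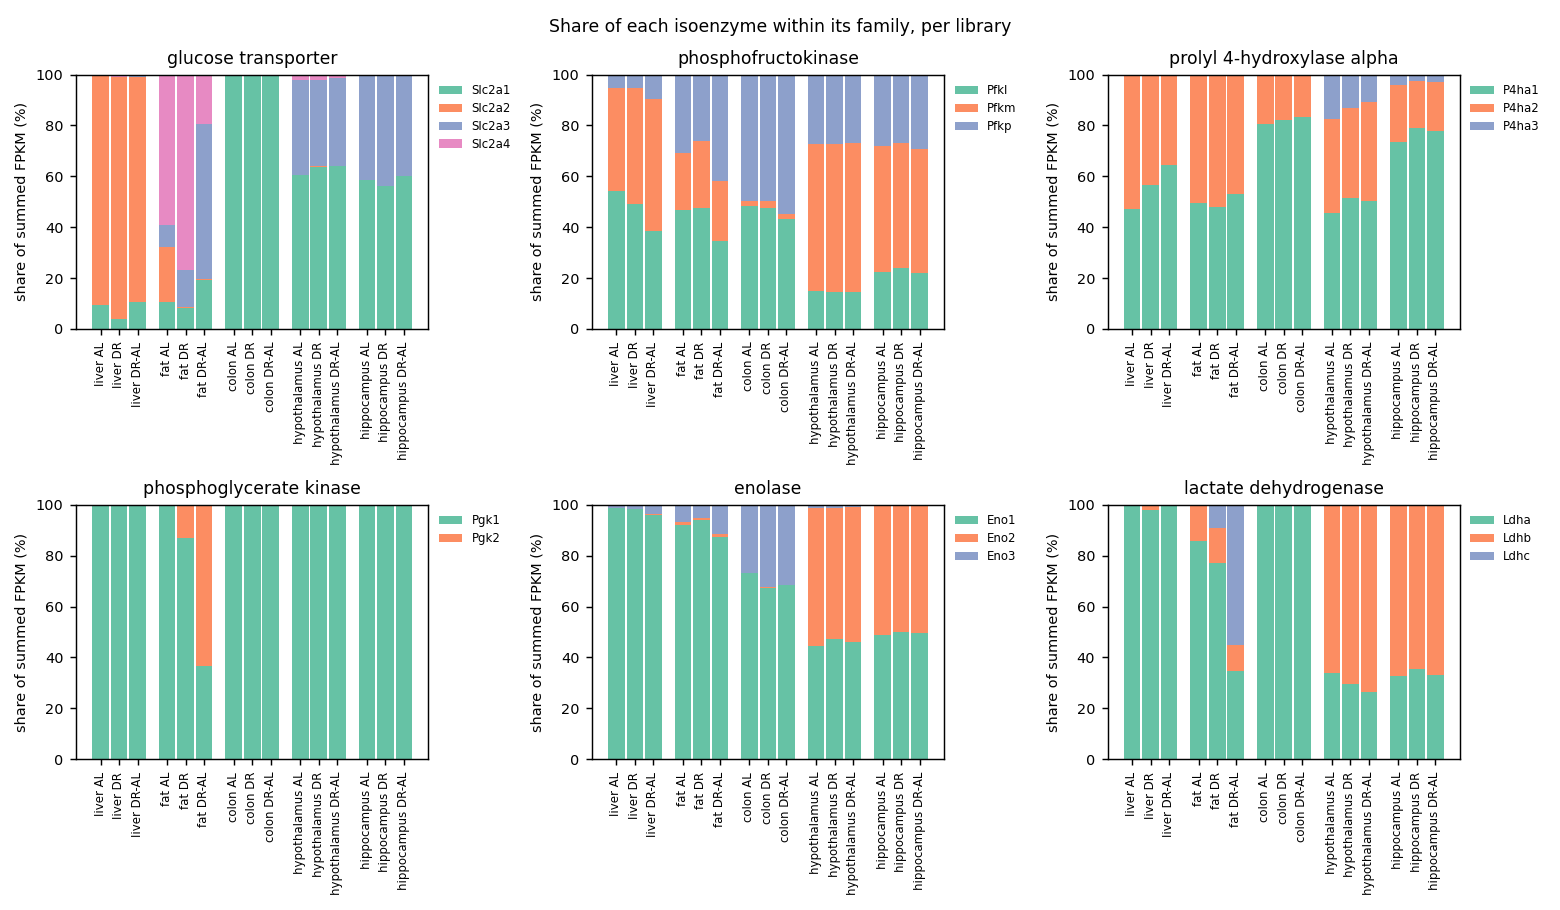
Stacked bars give the share of each isoenzyme gene (y axis, percent of the summed FPKM of its family) in each of the 15 libraries (x axis) for 6 families. The tissues differ in their leading form, and in fat the germ cell forms Pgk2 and Ldhc reach 63.3% and 55.0% in DR-AL.

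P4ha1 (table position chr10:58786011-58836052, plus strand, mm9) was higher in the DR library and in the DR-AL library than in the AL library of every tissue. The AL liver held 7.92 CPM, the DR liver 15.3 CPM and the DR-AL liver 16.5 CPM. In fat the levels were 26.2, 33.1 and 34.3 CPM in the same order, and in the colon they were 21.2, 30.8 and 33.6 CPM. The hippocampus gave 42.1, 60.9 and 59.9 CPM, and the hypothalamus 43.7, 52.7 and 47.5 CPM. The AL library was thus the lowest of the 3 in each tissue. The ratio of DR to AL was 1.92 in the liver (interval 1.61 to 2.31), 1.26 (1.14 to 1.40) in fat, and 1.45 (1.31 to 1.61) in the colon. The ratio in the hypothalamus was 1.21 (1.12 to 1.30), under 5 to 4, and in the hippocampus 1.44 (1.35 to 1.54). DR-AL to AL gave 2.08, 1.31, 1.59, 1.09 and 1.42 for liver, fat, colon, hypothalamus and hippocampus, and both sets of ratios share the AL libraries. P4ha1 was called higher in 4 tissues in both comparisons, as were 0.191% and 0.198% of all genes in at least 4 tissues. Because P4ha1 was picked for higher counts in these same libraries, the choice favoured its calls. They are a description, and the shares cannot show how unusual P4ha1 is. Among 11283 genes averaging 10 or more counts in every tissue, 8.46% were higher in DR and 4.13% were higher in DR-AL in all 5 tissues, or 4.76% and 2.84% with DESeq size factors. Eno1, which was not picked, was also higher in DR than in AL in all 5 tissues under both scalings. In DR-AL it was higher than in AL in 3 of 5. Across tissues P4ha1 was highest in the hippocampus and hypothalamus, whose ranges overlap, then in fat and colon, which also overlap, and lowest in the liver. The rule of choice used these values, so nothing is read from the shares. In fat, the FPKM values placed P4ha1 lower in DR and DR-AL than in AL (log2 fold changes of -0.32 and -1.18 with a pseudocount of 0.1), against 0.34 and 0.39 from the counts. Testis germ cell markers summed to 7.63, 658 and 3161 CPM in the same fat libraries, and their part in the P4ha1 values was not tested.

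Hk2 (chr6:82675020-82724448, minus strand, mm9), the insulin-responsive hexokinase of muscle and fat, was highest in the colon and fat, whose ranges overlap, then in the brain, and lowest in the liver. The colon held 151 CPM under AL, 372 CPM under DR and 384 CPM under DR-AL, and the ratios to AL were 2.46 (interval 2.38 to 2.55) and 2.54 (2.45 to 2.64). The DR and DR-AL libraries lie far above AL and close to each other. Cell cycle genes such as Mki67, which mark dividing cells, were also higher in the DR colon: 6 of 6 rose, and their summed level was 103, 274 and 86.4 CPM in AL, DR and DR-AL. The part of dividing cells in the colon values of Hk2 was not tested. In fat Hk2 was at 117, 196 and 96.8 CPM, so that DR was the highest and DR-AL the lowest. In the liver it was covered by 18, 70 and 36 counts (0.728, 3.22 and 1.47 CPM), and the interval of the DR to AL ratio of 4.42 ran from 2.60 to 7.88. In the same liver libraries the colon enterocyte sum had the order given above, while the median of that list was 0.081, 1.17 and 0.878 CPM. In AL 4 of those 6 markers had 3 counts or fewer. Skeletal muscle markers summed to 28.5, 176 and 290 CPM. The part of both lists in the liver values of Hk2 was not tested. The hypothalamus went the other way, with 10.1, 7.18 and 5.93 CPM, and the hippocampus held between 6.79 and 7.11 CPM. Genes of cortical and hippocampal neurons, which would be low in a clean hypothalamus, summed to 11.2, 55.3 and 43.6 CPM in the AL, DR and DR-AL hypothalamus, with 5 of 6 higher and 1 lower in DR. Their part in the Hk2 difference was not tested.

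Eno3 (chr11:70468155-70476015, plus strand, mm9) was at 5.17, 10.4 and 10.1 CPM in the AL, DR and DR-AL liver. The colon gave 157, 246 and 219 CPM, and fat gave 31.2, 50.3 and 55.9 CPM. In these 3 tissues AL was the lowest library. The brain did not share this order: Eno3 was at 28.9, 24.003 and 23.9 CPM in the hypothalamus and between 3.75 and 4.73 CPM in the hippocampus, where 117 to 186 counts were behind each value. Skeletal muscle genes moved with Eno3 in the liver. Of 7 such markers 6 were higher and Myh4 was lower in DR, 7 of 7 were higher in DR-AL, and the list summed to 28.5, 176 and 290 CPM, with the muscle creatine kinase gene Ckm at 3.598, 19.7 and 39.7 CPM. In the fat DR library all 7 markers were higher and the sum was 102, 604 and 110 CPM in AL, DR and DR-AL. In the colon the same sum was at most 11.3 CPM, with 0 of 7 higher in DR, and Eno3 was higher there too. The part of muscle RNA in the liver and fat values of Eno3 was not tested.

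**Figure D2:**
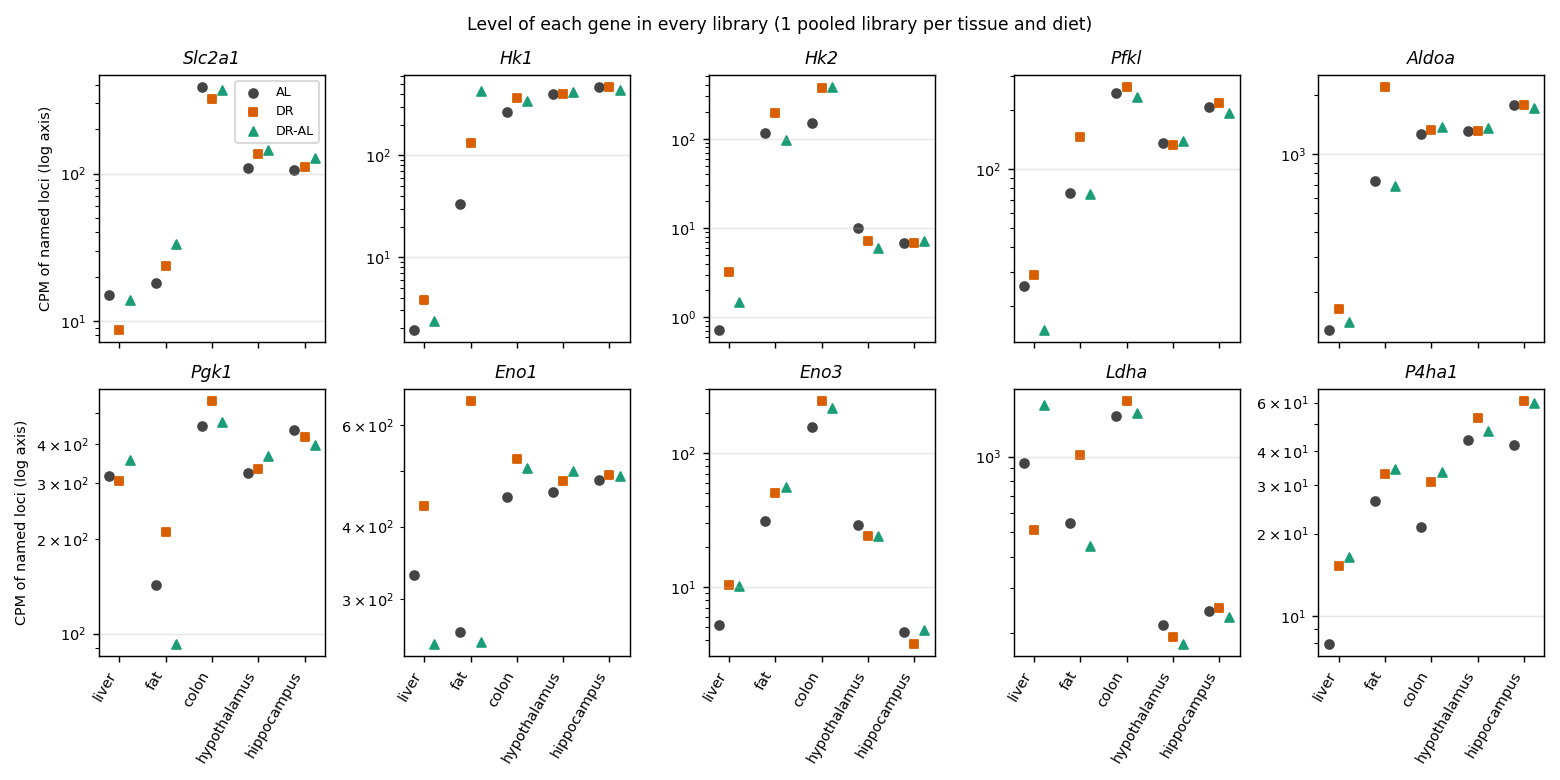
Each panel plots the level of 1 gene (y axis, CPM of named loci, log axis) in the 5 tissues (x axis), with a circle for AL, a square for DR and a triangle for DR-AL, 1 pooled library each. The AL circle of P4ha1 is the lowest point in each tissue, and Hk1 in fat spreads from 33.4 to 431 CPM.

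Among the 7 genes that were not picked for higher counts, 11 of 35 gene and tissue pairs rose and 2 fell between AL and DR, and 7 of the 11 were in fat. In the liver 3 of the 7 rose and 2 fell, and of 17408 genes tested 28% changed, 18% up and 9.92% down. In fat 7 of 7 rose, where 45.6% of all genes changed (35.2% up, 10.4% down). The colon had 1 of 7 up, and 19.7% of all genes changed there (9.04% up, 10.6% down). The hypothalamus had 0 of 7 that passed, beside 7.05% of all genes (4.33% up, 2.72% down), and in the hippocampus 0 of 7, beside 4.03% (1.36% up, 2.67% down). Between AL and DR-AL, 5 of the 35 pairs rose and 3 fell. The liver had 1 up and 2 down, with 30.9% of all genes changed (15% up, 15.8% down). Fat had 2 up and 1 down, with 57.9% of all genes changed (46% up, 11.9% down). The colon had 1 up, with 14.3% of all genes changed (5.83% up, 8.5% down), and the hypothalamus 1 up, with 15.1% changed (6.06% up, 9.02% down). In the hippocampus 0 of 7 passed, beside 6.15% of all genes (3.99% up, 2.16% down). Between DR and DR-AL, 4 pairs rose and 8 fell. The liver gave 2 up and 3 down, with 40.8% of all genes changed (16.9% up, 24% down), and fat 2 up and 5 down, with 51.6% changed (38.3% up, 13.3% down). The remaining tissues gave 0 of 7, beside 14.5% of all genes in the colon (6.78% up, 7.67% down), 9.62% in the hypothalamus (2.82% up, 6.8% down) and 4.88% in the hippocampus (3.63% up, 1.26% down). Without the fat libraries 4 of 28 pairs rose and 2 fell in DR against AL.

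**Figure D3:**
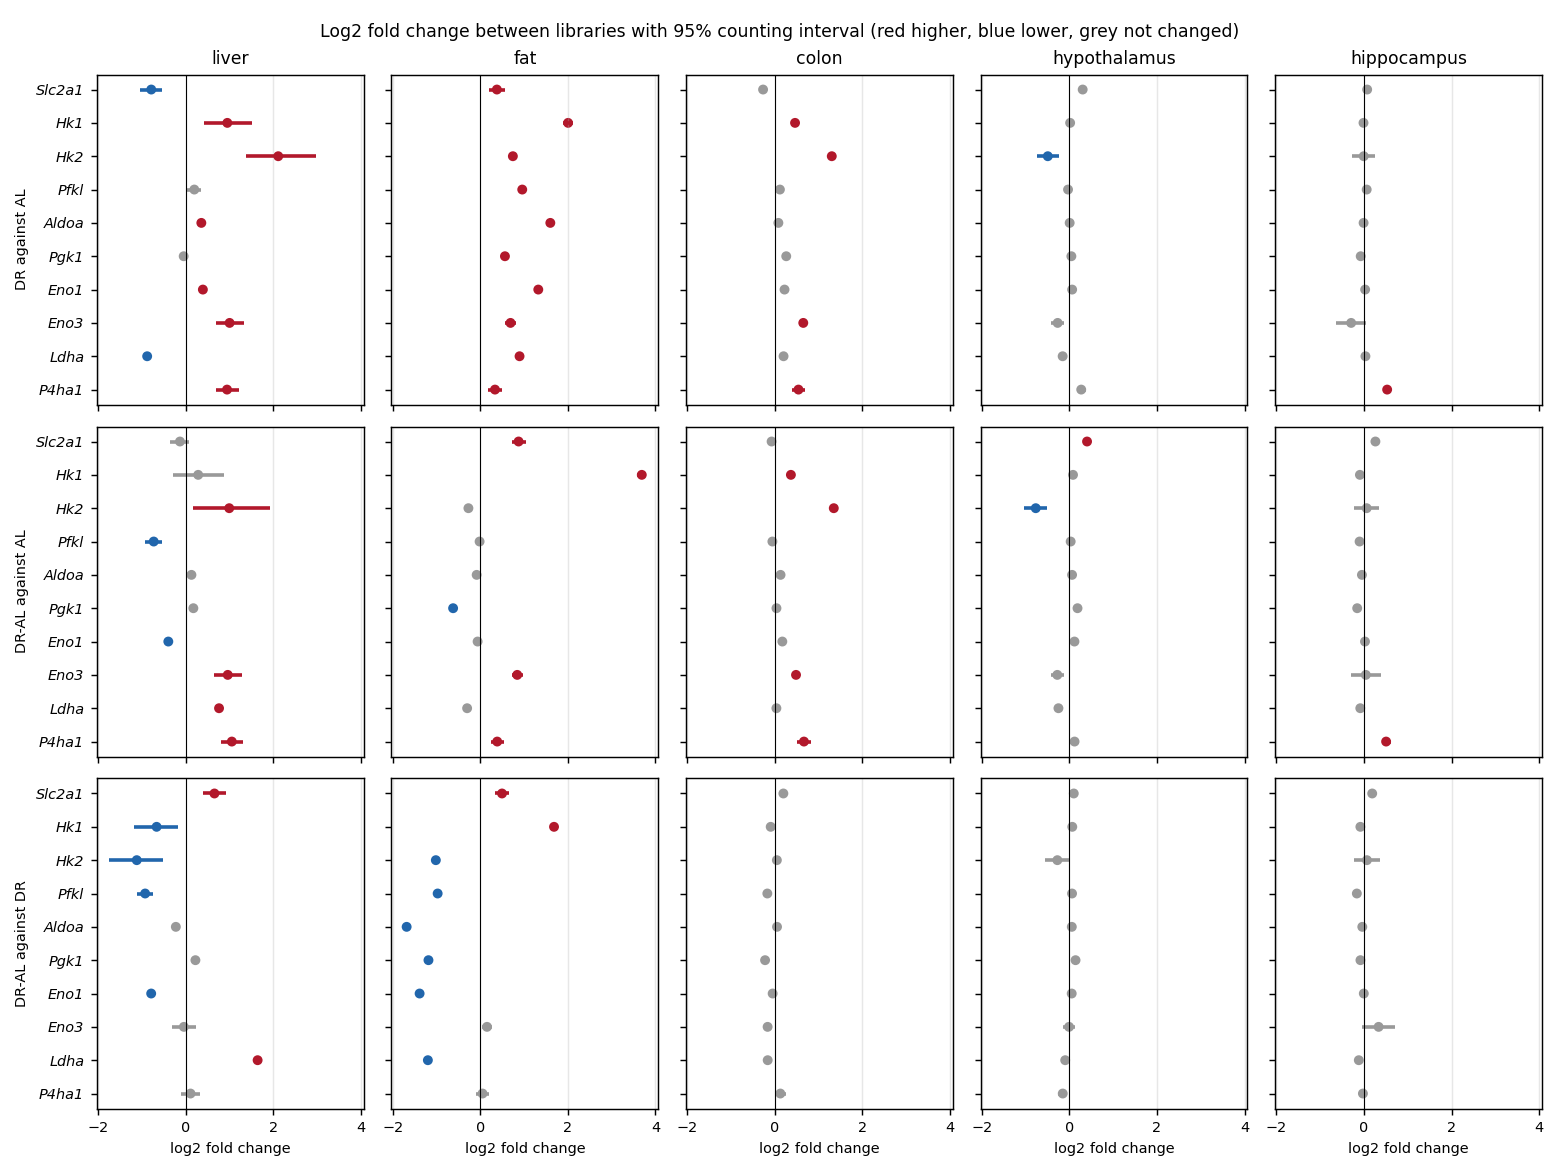
Points give the log2 fold change (x axis) of each of the 10 genes (y axis) for 3 comparisons (rows) in 5 tissues (columns), with bars for the 95% counting interval, red for higher, blue for lower and grey for not changed. In fat all 10 points lie right of 0 in DR against AL, among them the picked Hk2, Eno3 and P4ha1. The brain columns hold few coloured points.

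In the liver the members moved in both directions. Ldha (chr7:54101174-54110997, plus strand, mm9), the main lactate dehydrogenase there, was at 944, 512 and 1598 CPM in the AL, DR and DR-AL liver. It thus fell in DR to 0.543 of the AL level (interval 0.531 to 0.555) and rose in DR-AL to 1.69 times that level (1.67 to 1.72). Slc2a1 (chr4:118781350-118809934, plus strand, mm9) fell from 15.1 to 8.73 CPM and was at 13.8 CPM in DR-AL, which is not a change from AL. Pfkl (chr10:77449694-77472541, minus strand, mm9), the liver type of phosphofructokinase, was at 25.2, 28.9 and 15.2 CPM, so that DR-AL fell to 0.602 of AL (0.528 to 0.686). Eno1 was at 330, 433 and 251 CPM, highest in DR and lowest in DR-AL, with the reservation for its copies given above. Aldoa (chr7:133938748-133943961, minus strand, mm9) rose from 128 to 164 CPM in DR, a ratio of 1.28, and was at 140 CPM in DR-AL. Hk1 (chr10:61731603-61842685, minus strand, mm9) had 48, 82 and 58 counts. With DESeq size factors Aldoa and Eno1 no longer reached the ratio of 5 to 4 in DR.

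Other enzymes of the pathway were mostly higher in the DR liver. Pklr, the liver pyruvate kinase, was at 88.3, 233 and 33.4 CPM in the AL, DR and DR-AL liver, highest in DR and lowest in DR-AL. Of 18 other core glycolysis enzymes, 10 rose and 1 fell in DR, beside 18% of all genes up and 9.92% down (median log2 fold change 0.53, against 0.10 over all genes tested), among them Ldhb (2.99 to 8.22 CPM) and Aldoc (11.7 to 23.4 CPM). In DR-AL 5 rose and 3 fell, beside 15% of all genes up and 15.8% down, with a median of 0.15 against 0 over all genes. Of 11 regulators of the pathway in the table, 4 rose and 2 fell in DR. Pfkfb3, which makes the activator of phosphofructokinase, was at 23.7, 49.9 and 7.63 CPM. Pdk4, which shuts pyruvate out of the mitochondrial dehydrogenase, had the reverse order, 12.7, 4.64 and 45.5 CPM.

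In fat all 7 genes that were not picked were higher in the DR library than in AL, beside 35.2% of all genes. Hk2, Eno3 and P4ha1 were higher too, but were picked for higher counts after restriction. Of the 7, Pfkl, Aldoa, Pgk1, Eno1 and Ldha were lower in DR-AL than in DR, beside 13.3% of all genes, as was the picked Hk2. Aldoa was at 727, 2201 and 686 CPM, a DR to AL ratio of 3.03 (interval 2.98 to 3.08). Eno1 (chr4:149610835-149622982, plus strand, mm9) was at 263, 660 and 252 CPM. Ldha was at 545, 1014 and 442 CPM, and Pfkl at 75.3, 146 and 74.5 CPM. DR is the high library in each of these, with AL and DR-AL near each other. Pgk1 (chrX:103382463-103399038, plus strand, mm9) was at 143, 211 and 92.7 CPM, lower in DR-AL than in AL. Slc2a1 rose in both comparisons, with 18.2, 23.6 and 33.3 CPM. Hk1 did so most, with 33.4, 134 and 431 CPM, ratios to AL of 4.01 (3.72 to 4.33) and 12.9 (12.03 to 13.8).

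Scaling bears on the fat values. Over genes averaging 10 or more counts in fat, the median log2 fold change was 0.24 in DR and 0.34 in DR-AL with library totals, and 0.05 and 0 with DESeq size factors. With those factors 8 of 10 genes were higher in DR and 0 lower, where 42.8% of all genes changed. The 8 include the picked Hk2 and Eno3, while Slc2a1 and P4ha1 were below the ratio of 5 to 4. In DR-AL the split went from 4 higher and 1 lower to 3 higher (Slc2a1, Hk1 and Eno3) and 6 lower (Hk2, Pfkl, Aldoa, Pgk1, Eno1 and Ldha). Of all genes 58.1% changed there. The FPKM values differ further: the median CPM of the 10 genes per unit of FPKM was 3.36, 5.19 and 10.6 in the AL, DR and DR-AL fat libraries, against 2.49 to 2.70 in the hippocampus. Folds from FPKM between fat libraries are therefore given only as an alternative to those from counts.

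Markers of other tissues moved between the fat libraries along with these genes. Of 8 hepatocyte markers, Alb was listed at 0 in every library, liver included, and the other 7 were lower in DR and DR-AL; the list summed to 5342, 35.2 and 7.86 CPM. The liver glucose transporter gene Slc2a2 (64.2, 1.10 and 0.658 CPM) fell with it. The 6 smooth muscle markers all rose in DR and summed to 1247, 3702 and 1215 CPM, the order shown by Aldoa, Eno1, Ldha and Pfkl. The 8 epididymis markers summed to 847, 2956 and 4603 CPM, while their median level was 0.153, 25.8 and 0.530 CPM, highest in DR. The 8 testis germ cell markers summed to 7.63, 658 and 3161 CPM, and Hk1, Slc2a1, Eno3 and P4ha1 had this order in fat. The germ cell isoenzymes moved likewise: Pgk2 was at 0.114, 28.8 and 150 CPM and Ldhc at 0.0763, 85.2 and 497 CPM, and in DR-AL they took 63.3% of the phosphoglycerate kinase FPKM and 55.0% of the lactate dehydrogenase FPKM. Adipocyte markers summed to 29266, 22437 and 18285 CPM. The part of these tissues in the fat values was not tested.

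**Figure D4:**
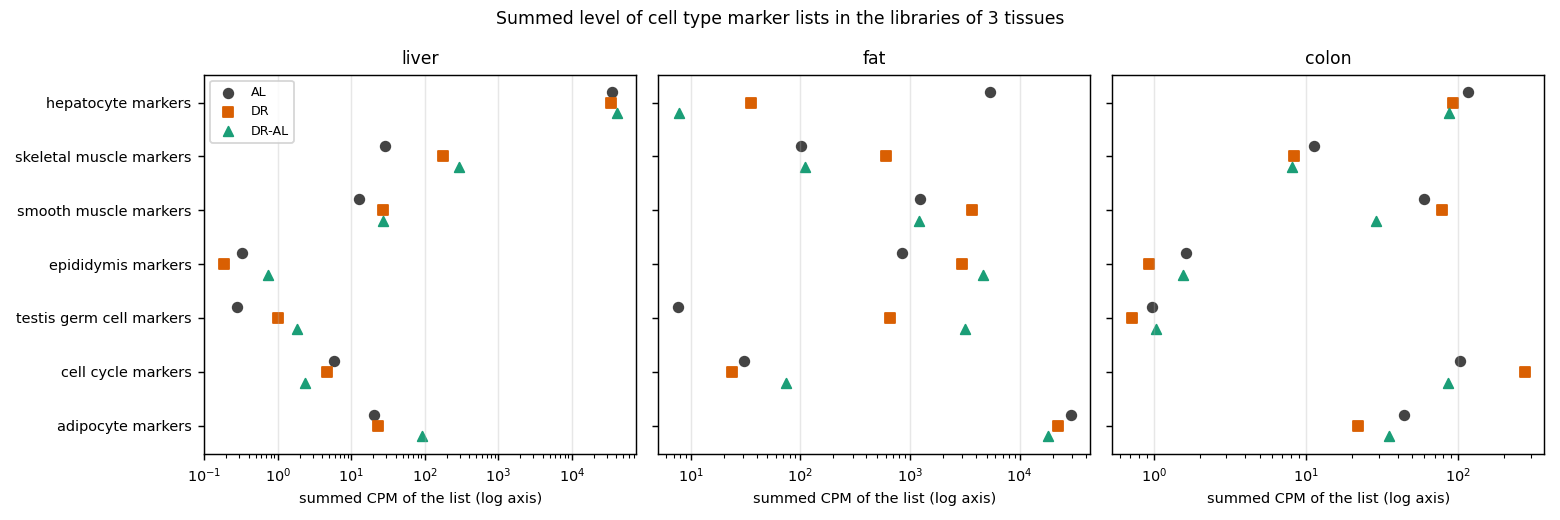
Summed CPM (x axis, log axis) of 7 marker lists (y axis) in the libraries of liver, fat and colon, with a circle for AL, a square for DR and a triangle for DR-AL. In fat the hepatocyte sum falls from 5342 to 7.86 CPM and the testis germ cell sum rises from 7.63 to 3161 CPM.

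Glucose transport in fat changed form along with these shifts. Slc2a4, the insulin-dependent transporter of fat and muscle, rose from 148 to 320.5 CPM in DR and fell to 51.5 CPM in DR-AL. Slc2a3, which is high in neurons and male germ cells, was at 29.4, 76.3 and 209 CPM. By FPKM, Slc2a4 led in AL (59.0%) and DR (76.8%) and Slc2a3 in DR-AL (60.8%), while Slc2a1 held 10.5%, 8.24% and 19.3%. Of the 18 other core glycolysis enzymes, 13 rose and 2 fell in DR in fat, beside 35.2% of all genes up and 10.4% down, with the pyruvate kinase gene Pkm at 220, 780 and 344 CPM and the muscle and germ cell phosphoglycerate mutase Pgam2 at 0.839, 25.3 and 115 CPM. In DR-AL 11 rose and 3 fell, or 4 and 5 with DESeq size factors, beside 46% of all genes up and 11.9% down with totals.

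In the colon the change outside the picked genes was Hk1, which was at 269, 370 and 347 CPM, with ratios to AL of 1.38 (interval 1.34 to 1.42) and 1.29 (1.249 to 1.33). The enzymes further down differed little: the DR to AL ratios of Pfkl, Aldoa, Pgk1, Eno1 and Ldha lay between 1.06 and 1.20. Slc2a1 was at 389, 323 and 369 CPM, a DR to AL ratio of 0.830. Hkdc1 fell from 87.2 to 46.4 and 51.5 CPM. The picked genes Hk2, Eno3 and P4ha1 were higher in both DR and DR-AL, with the values given above. Of the 18 other core enzymes 3 rose and 1 fell in DR, beside 9.04% of all genes up and 10.6% down, and 0 rose and 2 fell in DR-AL, beside 5.83% and 8.5%.

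In the brain the pathway varied little with diet. In the hypothalamus Slc2a1, which carries glucose across the blood-brain barrier, was at 110, 135 and 145 CPM. The ratio of DR to AL, 1.23 (interval 1.18 to 1.29), was under the ratio of 5 to 4 and that of DR-AL, 1.32 (1.26 to 1.38), was over it. The hippocampus had the same order, 106, 111 and 127 CPM, and no ratio there reached the threshold. Aldoa varied between 1307 and 1363 CPM in the hypothalamus and between 1723 and 1779 CPM in the hippocampus, and Hk1 between 401 and 425 CPM and between 445 and 475 CPM. Endothelial markers summed to 109, 129 and 146 CPM in the AL, DR and DR-AL hypothalamus, in the order of Slc2a1, and their part in its values was not tested. Slc2a1 was higher in DR-AL than in DR in 5 of 5 tissues, as were 2.75% of all genes, but by FPKM it was lower in fat, with a log2 fold change of -0.29.

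Across all 15 libraries, with tissue as a term in the quasi-likelihood test of edgeR, 0 of the 7 genes not picked passed an adjusted p under 0.05 in any of the 3 comparisons. Of 16381 genes tested, 1 passed in DR against AL (0.0061%), 0 in DR-AL against AL and 1 in DR-AL against DR, while 588, 751 and 616 had an unadjusted p under 0.05 and DESeq2 called 14, 6 and 9. Pfkl was 0.43 lower on the log2 scale in DR-AL than in DR (SE 0.164), with an unadjusted p of 0.0255 and an adjusted p of 0.971 in edgeR, and was lower in 4 of 5 tissues. The fitted log2 fold changes of Hk1 were 0.46 in DR and 0.77 in DR-AL against AL, with SE of 0.426 and 0.445. Each SE was derived from the statistic of the same test. The picked gene P4ha1 had fitted values of 0.44 in DR and 0.47 in DR-AL against AL, and of 0.03 between DR-AL and DR. Hk2 had 0.54 and 0.11 against AL, and Eno3 0.28 and 0.32. These 3 genes were picked on the same counts, so their fitted values are a description and are given without SE. The tissues come from the same pools of mice, so they are not independent animals.

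Other genes that respond to low oxygen moved in both directions. Of 20 hypoxia-inducible genes outside glycolysis, 7 rose and 1 fell in the DR liver, beside 18% of all genes up and 9.92% down, or 5 and 2 with DESeq size factors. In fat 7 rose and 5 fell, beside 35.2% and 10.4%, and with DESeq size factors the split turned to 5 up and 6 down and the median log2 fold change from 0.11 to -0.08. The colon gave 1 up and 3 down (9.04% and 10.6% of all genes), the hypothalamus 2 up and 0 down (4.33% and 2.72%), and the hippocampus 1 up and 0 down (1.36% and 2.67%). Vegfa, the growth factor for blood vessels, was at 112, 239 and 82.0 CPM in the AL, DR and DR-AL liver, and Bhlhe40, a transcriptional repressor, at 63.6, 125 and 36.0 CPM. In DR-AL both were below AL, where P4ha1 was above it. Ndrg1, a stress-response gene, fell in the colon from 414 to 255 and 249 CPM. Among 9 oxygen-sensing factors, Hif1a rose in the colon, from 202 to 323 CPM in DR and 263 in DR-AL, and the related factor Epas1 was at 207, 163 and 172 CPM there. Among 6 other genes of collagen hydroxylation, 0 rose and 1 fell in the DR liver, where 18% of all genes were up and 9.92% down, and 1 rose and 0 fell in the DR colon, where 9.04% were up and 10.6% down. P4hb, the beta subunit that pairs with P4ha1, was at 1676, 1742 and 1612 CPM in the liver.

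Pdk4 stood out among the 11 regulators of glycolysis found in the table. In DR it fell in the liver (12.7 to 4.64 CPM), fat (133 to 52.2 CPM) and colon (60.8 to 31.0 CPM) and rose in the hypothalamus (10.2 to 14.3 CPM). In DR-AL it was above AL in the liver at 45.5 CPM, in fat at 341 CPM, in the hypothalamus at 17.0 CPM and in the hippocampus at 22.9 CPM, while the colon was at 64.7 CPM. Between DR and DR-AL it rose in the liver, fat, colon and hippocampus.

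The genes whose pattern over diet was most like that of each picked gene were found by Pearson correlation of log2 CPM centred within each tissue, over 15 libraries and 11704 genes. For P4ha1 they were Trmt1l (r = 0.94), Rbm12b2 (0.93) and Kdelc1 (0.91). For Hk2 they were Hdac2 (0.91), Fez1 (0.90) and Tppp3 (0.90), and for Eno3 Tmed9 (0.95), Rpl3 (0.95) and Rbx1 (0.94). Fez1 was at 0.0404, 0.322 and 0.122 CPM in the AL, DR and DR-AL liver, where 3 counts are 0.121 CPM in AL. Tppp3 was at 0.243, 0.505 and 0.286 CPM there, so both correlations include liver values that rest on few counts. Trmt1l was at 15.1, 23.0 and 22.8 CPM in the AL, DR and DR-AL liver and at 26.7, 34.8 and 33.6 CPM in the hippocampus. The points share libraries and pools, and the values of r describe these libraries.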

How the data were processed

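Strand-specific RNA-Seq of pooled RNA from 5 tissues and 3 diets gave 15 libraries. The methods state that reads were trimmed, aligned in an orientation-specific way with Strand software and stripped of duplicates by the authors, on mm10. The submitters' processing notes name mm9 and DESeq2. The deposited counts are raw reads per locus. FPKM, also deposited by the authors, takes transcript length into account, and its scaling between libraries is not given in the sources used here. Of 21161 symbols matched to RefSeq GRCm38.p6, 2869 (13.6%) overlap its positions, so table positions are printed as mm9.

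Loci without a gene name (0.258% to 1.39% of the counts) were left out, counts were scaled by the remaining total, and log2 fold changes used a pseudocount of 0.5. Libraries were compared by the Z test on square roots, with Benjamini-Hochberg adjustment over all genes with at least 1 count in the tissue. Effects over tissues used edgeR 4.0.16 (quasi-likelihood, TMM, filterByExpr, tissue as a term). The Z test was tried on simulated Poisson counts and edgeR on simulated counts with a coefficient of variation of 0.1. The edgeR fit to these data gave 0.292, so the simulations do not cover the spread seen here. In the tissue comparisons, scaling was repeated with DESeq size factors and after removal of the 10 most abundant genes, genes under a mean of 10 counts were dropped, an exact test assumed a coefficient of variation of 0.1, and folds were taken from FPKM. The fit over tissues was repeated with DESeq2 1.42.0 and DESeq factors in edgeR, unfiltered, without the tissue term, and leaving out each tissue. The sums without fat and the names under DESeq factors were added after seeing the data.

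The 10 genes and all lists were chosen with earlier results of these data known. Other genes named are the isoenzymes of the members, up to 4 genes per list, tissue and comparison with the largest change among those changed and with a mean of at least 100 counts, the 3 genes most like each picked gene, and markers. Genes named outside this rule, such as P4hb and Mki67, were chosen after their values were seen. Tigar, Pgam4 and Adgre1 of the lists were not matched by symbol. Some results are not reported here.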

Additional observations from a re-analysis of the deposited data

Results flagged for a closer look

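In 6 cases a gene changed in opposite directions in a pair of tissues under the same comparison. Calls were common among all genes: 28% changed in the liver and 45.6% in fat in DR against AL. Between DR and DR-AL the shares were 40.8% in the liver and 51.6% in fat. How many of all genes had opposite calls was not counted, so the 6 cases are a description. The difference between the tissues was not tested, since each value compares 2 libraries. In DR against AL, Slc2a1 rose in fat and fell in the liver, 1.17 apart on the log2 scale. Ldha did likewise, with a difference of 1.78. Hk2 was higher in the liver and lower in the hypothalamus by 2.61. In DR-AL against AL, Hk2 was higher in the colon and lower in the hypothalamus, with a difference of 2.11. In DR-AL against DR, Hk1 rose in fat and fell in the liver, 2.35 apart, and Ldha rose in the liver and fell in fat, 2.84 apart. Hk2 was picked for higher counts after restriction. Markers of hepatocytes, muscle, epididymis and testis germ cells also differed between the fat libraries, and their part was not tested.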

How the results depend on the processing

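No paired analysis was possible because each tissue and diet gave 1 library, so no replicates could be matched within a tissue. The fit over all 15 libraries does set the diets side by side within tissues through its tissue term. The number of the 10 genes changed stayed within 1.5 times with totals without the 10 most abundant genes and with a mean of at least 10 counts, in 15 of 15 comparisons each. Allowing pools a coefficient of variation of 0.1, the DR against AL counts were 5 (liver), 2 (colon), 0 (hypothalamus) and 0 (hippocampus). The DR-AL against AL counts were 1 (colon), 0 (hypothalamus) and 0 (hippocampus). These counts include the picked genes, and the share of all genes was not counted under this setting. The other 8 comparisons stayed within 1.5 times. With DESeq size factors 9 changed in fat in DR-AL against AL, beside 58.1% of all genes. With folds from FPKM and a pseudocount of 0.1 or 1, 4 or 3 changed in fat in DR against AL and 9 or 9 in DR-AL against AL. The hypothalamus gave 2 in DR against AL with 0.1, and the hippocampus 2 or 2 in DR-AL against AL. The other comparisons, 11 with 0.1 and 12 with 1, stayed within 1.5 times. The share of all genes was not counted with folds from FPKM either.

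In fat, 7 log2 fold changes turned with FPKM. With pseudocounts of 0.1 and 1 they were, in DR against AL, -0.36 and -0.32 for Slc2a1, -0.14 and -0.14 for Pgk1, and -0.32 and -0.26 for P4ha1. In DR-AL against AL they were -0.65 and -0.56 for Slc2a1, -0.84 and -0.73 for Eno3, and -1.18 and -0.91 for P4ha1, and in DR-AL against DR -0.29 and -0.25 for Slc2a1. The ratio of CPM to FPKM differs between the fat libraries. The cause was not tested. Over tissues, 0 of the 7 genes not picked passed in any alternative, with each tissue left out included. The leading isoenzyme differed in 11 of 120 families and libraries when counts replaced FPKM. Depth limits Hk1 and Hk2 in the liver, with 18 to 82 counts.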
